A study of Mus musculus with 48 samples.

Results

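The chaperonins examined here are the 10 genes of the mitochondrial and the cytosolic folding chambers, Hspd1, Hspe1, Tcp1, Cct2, Cct3, Cct4, Cct5, Cct6a, Cct7 and Cct8. They were found by symbol in the batch-corrected tables, where they are 10 of 19601 protein-coding genes, and all 10 passed the filter on low counts that left 14839 genes for testing. The data are bulk mRNA sequencing of the substantia nigra (SN) of male C57Bl/6J mice, which were 121 days old when mouse α-synuclein was injected on 1 side into the right striatum, either as preformed fibrils (PFF) or as monomer, and which then breathed 21% O2 (normoxia) or 11% O2 (hypoxia). The SN was taken 12 weeks after injection by the protocol, and 90 or 91 days after it by the dates in the labels, except for 1 hypoxic monomer mouse (replicate 11) taken after 98 days. The protocol and the methods have the mice breathing 11% O2 from recovery to harvest, whereas the design text of the series places them in hypoxia only for the last 6 weeks. Of 48 mice, 12 per group, the authors kept 42, which were 11 normoxic monomer mice, 12 normoxic PFF mice, 9 hypoxic monomer mice and 10 hypoxic PFF mice. Monomer is the control injection, so no group is free of injected α-synuclein or of surgery.

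Chaperonins are closed protein chambers in which newly made or unfolded proteins fold apart from the rest of the cell. In the mitochondrial matrix the chamber is built of HSP60, encoded by Hspd1, and is capped by the HSP10 lid, encoded by Hspe1. In the cytosol the chaperonin containing TCP-1 (CCT, also called TRiC) is a double ring of 8 different subunits, encoded by Tcp1 and Cct2 to Cct8, and its best known clients are actin and tubulin. The transcription factor HSF1 induces Hspd1 and Hspe1 with other heat shock genes when proteins unfold. Chaperonins are studied in synuclein models because they act on proteins that are prone to aggregate.

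Hspd1 (ENSMUSG00000025980.14) and Hspe1 (ENSMUSG00000073676.4) lie head to head on chromosome 1 of GRCm38. In GENCODE vM21 Hspd1 spans chr1:55077835-55088243 on the minus strand and Hspe1 spans chr1:55088132-55091307 on the plus strand, so that the 2 genes share 112 bases. RefSeq windows of 250 bases before to 50 bases after a gene's start (GRCm38.p6) were matched for 9 of the 10 genes, all but Cct4. They were searched for the binding letters of HSF1, which are GAA units in alternating orientation. The pairs searched were GAANNTTC and TTCNNGAA, each of which reads the same on both strands, and the triplets were GAANNTTCNNGAA and TTCNNGAANNTTC, which are each other's reverse complement and each contain both pairs. The 5 windows printed here show the element shared by the mitochondrial genes, a pair in each of the cytosolic genes Cct5 and Cct6a, and, for contrast, a window with no match, that of Cct8, the most highly expressed CCT gene. Capitals mark the motif letters, overlapping matches joined.
Hspe1, chr1:55087898-55088197, plus strand: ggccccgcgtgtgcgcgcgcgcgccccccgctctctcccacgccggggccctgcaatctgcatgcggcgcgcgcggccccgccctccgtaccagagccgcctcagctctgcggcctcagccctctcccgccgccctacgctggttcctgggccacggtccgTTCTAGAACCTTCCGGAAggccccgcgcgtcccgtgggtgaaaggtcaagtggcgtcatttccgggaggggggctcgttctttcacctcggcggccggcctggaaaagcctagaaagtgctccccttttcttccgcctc
Hspd1, chr1:55087883-55088182, minus strand: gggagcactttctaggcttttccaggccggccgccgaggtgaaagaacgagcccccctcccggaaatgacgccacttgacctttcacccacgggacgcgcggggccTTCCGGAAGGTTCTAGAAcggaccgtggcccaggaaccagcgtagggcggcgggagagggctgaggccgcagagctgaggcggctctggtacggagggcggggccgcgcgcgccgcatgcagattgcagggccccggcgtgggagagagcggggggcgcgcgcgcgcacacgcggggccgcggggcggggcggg
Cct5, chr15:31601797-31602096, minus strand: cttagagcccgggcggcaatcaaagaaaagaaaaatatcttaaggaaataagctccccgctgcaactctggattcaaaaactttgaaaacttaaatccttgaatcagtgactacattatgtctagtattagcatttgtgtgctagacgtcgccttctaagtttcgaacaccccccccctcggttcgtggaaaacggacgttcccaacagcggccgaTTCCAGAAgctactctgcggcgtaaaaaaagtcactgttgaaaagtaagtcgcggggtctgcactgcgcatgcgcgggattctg
Cct6a, chr5:129787106-129787405, plus strand: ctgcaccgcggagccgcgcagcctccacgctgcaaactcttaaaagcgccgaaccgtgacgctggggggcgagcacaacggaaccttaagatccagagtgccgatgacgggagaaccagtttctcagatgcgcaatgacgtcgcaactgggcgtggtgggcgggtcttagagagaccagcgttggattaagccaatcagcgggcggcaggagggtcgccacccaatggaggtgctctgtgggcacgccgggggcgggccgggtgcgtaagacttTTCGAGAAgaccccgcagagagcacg
Cct8, chr16:87495820-87496119, minus strand: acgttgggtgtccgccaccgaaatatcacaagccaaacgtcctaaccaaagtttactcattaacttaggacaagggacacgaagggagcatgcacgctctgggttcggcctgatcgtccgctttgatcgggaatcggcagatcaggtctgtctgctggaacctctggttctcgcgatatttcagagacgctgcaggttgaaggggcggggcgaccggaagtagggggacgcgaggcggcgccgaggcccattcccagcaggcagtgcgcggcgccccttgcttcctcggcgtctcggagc

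The windows of Hspe1 and Hspd1 hold the same 18 bases, chr1:55088059-55088076, read from opposite strands, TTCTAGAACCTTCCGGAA for Hspe1 and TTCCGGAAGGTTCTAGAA for Hspd1. This run contains both triplets. It ends 72 bases before the RefSeq start of Hspe1 and 127 bases before that start of Hspd1. In GENCODE vM21 it lies outside both Hspe1 transcripts and outside the Hspd1 transcript that begins nearest to it, but within an exon of 1 Hspd1 transcript that starts further upstream and an intron of another. A window of Hspd1 at a start further upstream, chr1:55088194-55088493, had no match. Among the cytosolic genes, a window of Cct5 (TTCCAGAA), a window of Cct2 (GAAGTTTC) and that of Cct6a (TTCGAGAA) held a single pair. The other windows of Cct5 and Cct2 had no match, and the pair of Cct6a lay after the start. None of the cytosolic genes held a triplet, and no match was found for Tcp1, Cct3, Cct7 and Cct8. In all, 5 of 9 chaperonin genes had a pair in at least 1 window, against 17.0% of 27025 genes. A triplet was found for 2 of 9, against 0.662%. In both counts Hspd1 and Hspe1 are counted separately although they share 1 element. Of 15 known HSF1-induced heat shock genes, 11 had a window, 7 of them with a pair and 2 with a triplet. These matches are letters in a window and were not tested for binding.

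The 42 libraries held between 12903000 and 17120900 counts before correction, and single chaperonin genes between 914 and 4414 counts per mouse, which is a Poisson counting error of 1.51% to 3.31%, while the SD between mice of a group was 3.19% to 9.91% of the mean level. The labels name 3 batches, and the study's methods describe a batch effect associated with the date of euthanasia. Normoxic monomer mice came from batches 1 and 2 (4 and 7 mice) and hypoxic ones from batches 1 and 3 (4 and 5 mice). Both PFF groups had mice in all 3 batches. Nothing in the labels ties mice to litters or cages. The paper's methods describe matching mice across groups by weight, age, delivery date and, where possible, cage. The labels do not give these matches, and the main fit treats the mice as unmatched. The summed TPM of 7 dopaminergic neuron markers ranged from 1091 to 5300 over the mice, with group medians between 3108 and 3527, and none of the 7 passed the test in any comparison. In the SN, fewer cells of a type and less RNA per cell cannot be told apart. Reads of the many processed copies of these genes could be mixed with theirs. Of the 23 Hspd1 copies counted, 14 had reads, and together they took from 0.860% to 1.90% of the reads of Hspd1 and its copies, most of them in Hspd1-ps3. The 7 Hspe1 copies took up to 1.72%, and those of the other members at most 0.185%.

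In normoxic monomer mice the chaperonins formed a ladder of levels in TPM, a unit of transcript abundance that is corrected for gene length and library size. The length used is that of the exons of all annotated transcripts together, from 1474 bases for Hspe1 to 6778 for Cct7. The order between genes depends on these lengths. Hspd1 was at the top with 380 ± 37.4 TPM (SD, n = 11), ahead of its lid gene Hspe1 with 213.5 ± 18.9 TPM. Between them came Cct8, the θ subunit, with 330 ± 26.8 TPM, Cct2, the β subunit, with 274 ± 15.7 TPM, and Cct5, the ε subunit, with 251 ± 23.1 TPM. Below Hspe1 were Cct6a, the ζ subunit, at 182.3 ± 11.8 TPM, Tcp1, the α subunit, at 145 ± 9.46 TPM, Cct7, the η subunit, at 129 ± 12.2 TPM, Cct4, the δ subunit, at 122 ± 9.13 TPM, and Cct3, the γ subunit, at 98.2 ± 5.94 TPM. Most neighbours in this order were separated within each mouse although their ranges across mice overlapped. The exceptions were Cct2 above Cct5, which held in 10 of 11 mice, and Cct7 above Cct4, which held in 9 of 11. Cct4 and Cct3 did not overlap.

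The CCT genes encode subunits present once in each ring, and their TPM spanned 3.36-fold in normoxic monomer mice, from Cct3 to Cct8. This span depends on the exon lengths used, which are 6370 bases for Cct3 and 3088 for Cct8. As shares of all counts before correction, Cct8 was again the highest of the 8 (0.0247%) and Cct7 came next (0.0203%). By that measure Cct4 (0.0117%), not Cct3 (0.0150%), was the lowest. The span was 3.43-fold in normoxic PFF mice, 3.37-fold in hypoxic monomer mice and 3.41-fold in hypoxic PFF mice, and the order of all 8 was the same in the 4 groups. As a share of the summed TPM of the 8 genes, Cct8 made up 21.6% ± 0.511 in normoxic monomer mice and 22.1% ± 0.395 in hypoxic PFF mice, and Cct3 made up 6.42% ± 0.238 and 6.49% ± 0.195. No subunit's mean share moved by more than 0.656 percentage points between groups. The summed TPM of the 8 genes was 1531 ± 103 in normoxic monomer, 1473 ± 65.5 in normoxic PFF, 1402 ± 83.4 in hypoxic monomer and 1419 ± 61.2 in hypoxic PFF mice.

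**Figure D1:**
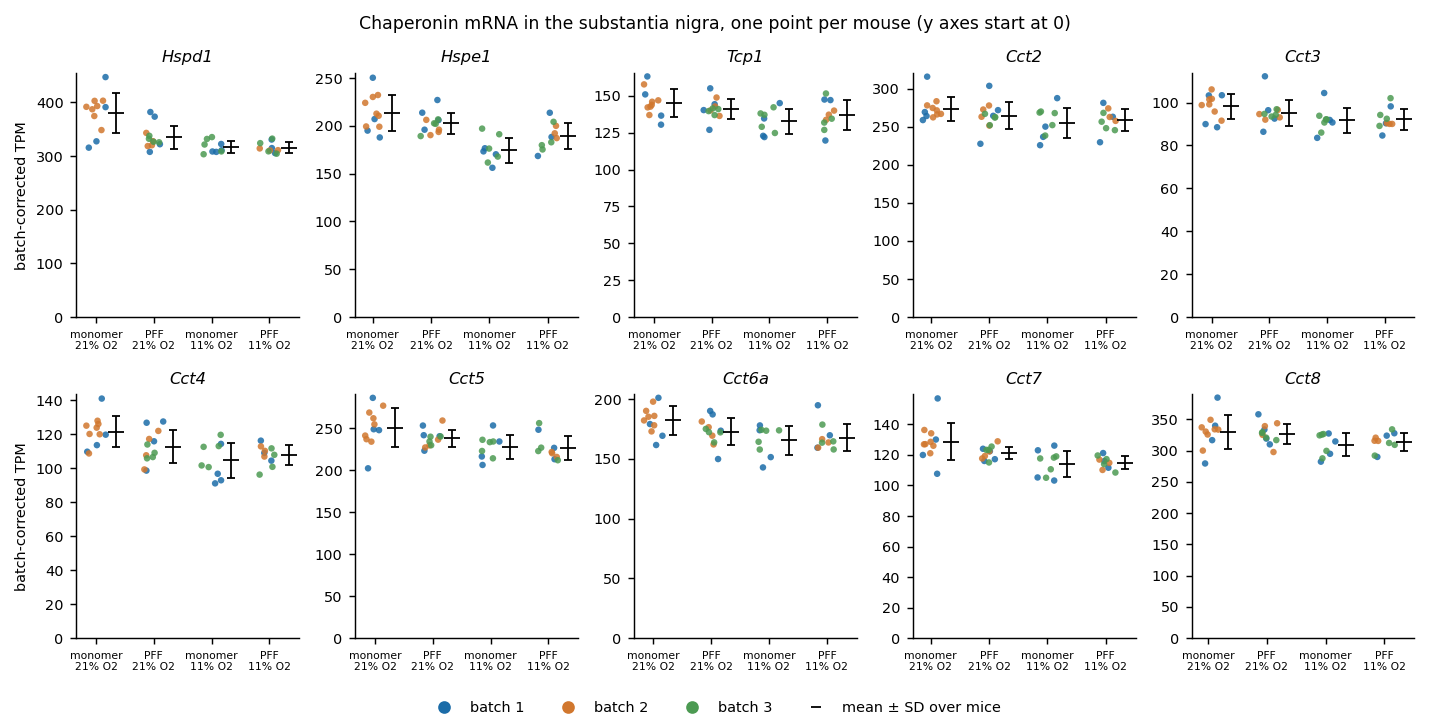
Batch-corrected TPM of the 10 chaperonin genes, 1 panel per gene, for 4 groups, each point a mouse coloured by batch and the bar beside the points the mean ± SD. Hspd1 stood at 380 TPM in monomer mice at 21% O2 and at 335, 317 and 316 TPM in the other groups, which lie closer together.

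The remaining genes are spread over the genome. Tcp1 (ENSMUSG00000068039.13) lies at chr17:12915701-12925067 on the plus strand, Cct2 (ENSMUSG00000034024.8) at chr10:117051001-117063814 on the minus strand and Cct3 (ENSMUSG00000001416.13) at chr3:88297116-88321767 on the plus strand. Cct4 (ENSMUSG00000007739.10) is at chr11:22990519-23003780, plus strand, Cct5 (ENSMUSG00000022234.15) at chr15:31590800-31601804, minus strand, and Cct6a (ENSMUSG00000029447.11) at chr5:129786998-129846371, plus strand. Cct7 (ENSMUSG00000030007.8) is at chr6:85451514-85468475, plus strand, and Cct8 (ENSMUSG00000025613.13) at chr16:87483326-87495873, minus strand. Values count exons of the whole gene. Because the counting is not stated to use strand, reads in stretches shared with a gene on the other strand cannot be told apart, which touches Hspd1 with Hspe1, Tcp1 with Mrpl18 and Acat3, Cct6a with Psph, Cct7 with Pradc1 and Cct8 with Usp16.

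The question of the PFF comparison at 21% O2 is what the fibrils change in mice breathing room air. Hspd1 fell with PFF, and it was the only chaperonin gene to pass the test. In normoxic monomer mice its lowest, median and highest TPM were 316, 391 and 447, and in normoxic PFF mice they were 308, 327 and 382. All 12 PFF mice were below the monomer median, 7 of 11 monomer mice were above the highest PFF mouse, and the ranges overlapped. The log2 fold change was -0.17 ± 0.038 (SE), a level of 89.1% of that in monomer mice, with an adjusted p of 0.00562 by the quasi-likelihood test of edgeR with Benjamini-Hochberg adjustment. Thus 1 of 10 chaperonin genes passed an adjusted p of 0.05, against 7.59% of all genes tested, and none passed the study's further condition of a log2 fold change beyond 0.25, which 3.7% of genes did.

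The lid gene Hspe1 had 187.8, 210.5 and 250.3 TPM as lowest, median and highest in normoxic monomer mice and 189.2, 202.4 and 227.0 TPM in normoxic PFF mice. Its log2 fold change was -0.06 ± 0.046, with an adjusted p of 0.481 by edgeR, so that a difference was not shown. The CCT genes ranged from -0.09 ± 0.047 for Cct4, which had an adjusted p of 0.235, to 0.00 ± 0.038 for Cct8, and none passed. Their median of -0.04 compares with 0.00 over all genes. The sign was negative for 9 of 10 chaperonin genes, while 49.6% of all genes were lower; it was negative for 10 when log2 TPM was used, within batch 2, or with counts before correction and no batch term, and for 7 within batch 1. Within batch 1 (4 against 4 mice) Hspd1 had a log2 fold change of -0.10 ± 0.054 and an adjusted p of 0.426 by edgeR, in a fit where 0.0609% of genes passed, and within batch 2 (7 monomer and 4 PFF mice) -0.24 ± 0.045 and 0.00548, in a fit where 5.43% did. Batch 3 held no normoxic monomer mouse. Of the markers of other cell types, Mog (oligodendrocytes) rose by 0.20 ± 0.058 and Slco1a4 (endothelial cells) by 0.45 ± 0.142 on the log2 scale with PFF at 21% O2, with edgeR adjusted p of 0.0284 and 0.0416. The other 5 oligodendrocyte markers did not pass, nor did the other 4 endothelial markers, which ran from -0.19 for Flt1 to 0.10 for Cldn5. The part of these markers in the fall of Hspd1 was not tested.

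The hypoxia comparison in monomer mice asks what 11% O2 changes without fibrils. Of the 10 chaperonin genes 7 fell by the adjusted p, against 6.21% of all genes, and Hspd1 and Hspe1 fell furthest. Hspd1 had 303, 311 and 335 TPM as lowest, median and highest in hypoxic monomer mice against the 316, 391 and 447 TPM of normoxic ones. All 9 hypoxic mice were below the normoxic median and 9 of 11 normoxic mice were above the highest hypoxic mouse, although the 2 ranges overlapped at 2 low normoxic mice. Its log2 fold change was -0.26 ± 0.042, or 83.6% of the normoxic level, with an adjusted p of 3.66e-05 by edgeR's quasi-likelihood test. Hspe1 had 156.1, 173.3 and 197.1 TPM in hypoxic monomer mice against 187.8, 210.5 and 250.3 TPM, and 7 of the 9 hypoxic mice were below every normoxic mouse. Its log2 fold change was -0.29 ± 0.050, or 82.1% of the normoxic level, with an adjusted p of 0.000104 by edgeR.

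Of the 8 CCT genes, 5 fell in hypoxic monomer mice by the adjusted p alone and all 8 had a negative sign. Cct4 had 91.2, 102 and 120 TPM as lowest, median and highest under hypoxia and 109, 120 and 141 TPM under normoxia, a log2 fold change of -0.21 ± 0.051 with an adjusted p of 0.00446 by edgeR. Cct7 had 103, 118 and 126 TPM against 108, 127 and 157 TPM, with -0.17 ± 0.041 and an adjusted p of 0.00458 by edgeR. In both genes all 9 hypoxic mice were below the normoxic median and the ranges overlapped. Cct5 fell by 0.13 ± 0.043, Cct6a by 0.13 ± 0.042 and Tcp1 by 0.12 ± 0.041 on the log2 scale, with edgeR adjusted p of 0.0338, 0.0272 and 0.0367. Cct2, Cct3 and Cct8 had -0.10 ± 0.041, -0.09 ± 0.040 and -0.09 ± 0.041 and did not pass, with edgeR adjusted p of 0.114, 0.111 and 0.153. The medians were -0.27 for the mitochondrial pair and -0.13 for the CCT genes, against a median over all genes that no scaling moved beyond 0.02 from 0.

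In counts, 7 of 10 chaperonin genes were lower with an adjusted p under 0.05 by edgeR, against 6.21% of all genes tested that fell and 13.2% that changed either way. With the fold condition, 2 of 10 were called, Hspd1 and Hspe1, against 2.55% of genes called lower. All 10 had a negative sign, as did 52.1% of all genes, and all 10 kept it under each of the 12 alternative fits of this comparison, batch 1 alone included. Only batch 1 held both groups. There, with 4 mice against 4, Hspd1 (-0.23 ± 0.054), Hspe1 (-0.29 ± 0.072) and Cct4 (-0.26 ± 0.064) passed, with edgeR adjusted p of 0.0373, 0.0456 and 0.0469, in a fit where 2.46% of genes passed. The other mice of the 2 groups came from different batches, and there batch and O2 cannot be told apart.

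The count of 7 rested in part on single mice. It was 4 without normoxic monomer replicate 4 or 11, or without hypoxic monomer replicate 1, 4 or 11. The count of 2 became 1 without normoxic monomer replicate 4, 6 or 7 or hypoxic monomer replicate 3 or 11. Hypoxic monomer replicate 11, which lowered both counts, was the mouse taken after 98 days. Normoxic monomer replicate 4 was the highest of its group for 9 of the 10 genes and replicate 3 the lowest for 7. Hspd1 and Hspe1 passed the adjusted p with any 1 of the 42 mice left out, with adjusted p of at most 0.000132 and 0.000402 by edgeR.

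**Figure D2:**
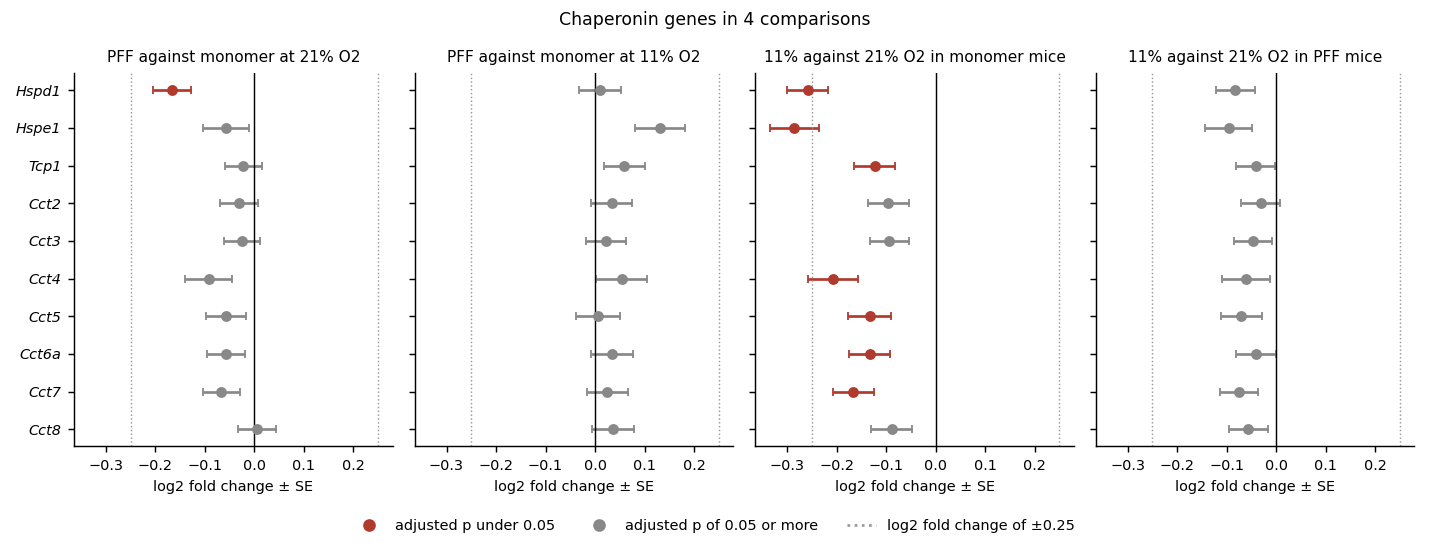
Log2 fold changes with their SE for the 10 chaperonin genes in 4 comparisons, red where the adjusted p of edgeR was under 0.05, with dotted lines at ±0.25. In monomer mice 7 genes fell at 11% O2, whereas with PFF at 21% O2 only Hspd1 did, at -0.17, and in the remaining panels no gene passed.

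Markers of other cell types moved in the same comparison. All 5 endothelial cell markers and all 5 red cell markers rose in hypoxic monomer mice, with median log2 differences of 0.52 and 1.32, and 3 of 6 oligodendrocyte markers did. The summed TPM of the red cell markers was 514 to 1404 (median 1036) in normoxic monomer mice and 1058 to 5795 (median 2068) in hypoxic ones, and that of the endothelial markers 190 to 253 (median 225) and 255 to 475 (median 314). The oligodendrocyte sums ran from 7899 to 10901 and from 8266 to 12430. No marker in these lists was at 0 in all mice. None of 5 neuronal, 5 astrocyte or 6 microglia markers passed. The part of these shifts in the chaperonin result was not tested.

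With PFF the same change of O2 gave smaller values. In normoxic PFF mice Hspd1 had 308, 327 and 382 TPM as lowest, median and highest, and in hypoxic PFF mice 305, 313 and 333 TPM, a log2 fold change of -0.08 ± 0.040 with an edgeR adjusted p of 0.445. Hspe1 had 189.2, 202.4 and 227.0 TPM against 168.4, 187.7 and 213.7 TPM, with -0.10 ± 0.047 and 0.459. In both genes 8 of 10 hypoxic mice were below the normoxic median. No chaperonin gene passed the adjusted p in PFF mice, where 0.815% of all genes did; at an unadjusted p under 0.05 there were 2, Hspd1 and Hspe1, against 10.7% of genes, and DESeq2 passed none. The sign was negative in all 10, against 53.2% of all genes, and in 7 within batch 2. Cct7 was the clearest of the cytosolic genes, with -0.07 ± 0.039 and all 10 hypoxic mice below the normoxic median of 122 TPM, but its edgeR adjusted p was 0.490. Of the 5 endothelial markers, Cldn5 and Flt1 rose here, by 0.47 ± 0.103 and 0.53 ± 0.107 on the log2 scale, with edgeR adjusted p of 0.0114 and 0.00499.

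Between PFF and monomer mice that both breathed 11% O2, the chaperonins did not pass in any case. Over all genes 0% passed the adjusted p by edgeR, 3.92% had an unadjusted p under 0.05, and DESeq2 passed 1 gene. Hspd1 had 303, 311 and 335 TPM in hypoxic monomer and 305, 313 and 333 TPM in hypoxic PFF mice, with a log2 fold change of 0.01 ± 0.042. Hspe1 had 156.1, 173.3 and 197.1 TPM against 168.4, 187.7 and 213.7 TPM, and 1 of 10 PFF mice was below the monomer median. Its log2 fold change was 0.13 ± 0.051, the only one among the 10 with an unadjusted p under 0.05 (0.0133), and its edgeR adjusted p was 1.00. The CCT genes lay between 0.01 and 0.06. None of the 10 was lower with PFF, against 50.4% of all genes, but 2 were on log2 TPM and with counts before correction and no batch term, 5 were within batch 3 and 1 was within batch 1.

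The interaction term asks whether the effect of hypoxia differed between PFF and monomer mice. No chaperonin gene passed, against 2.32% of all genes. The term was 0.18 ± 0.057 for Hspd1, with an unadjusted p of 0.00376 and an adjusted p of 0.0959 by edgeR, 0.19 ± 0.069 for Hspe1, with an adjusted p of 0.140, and 0.15 ± 0.070 for Cct4, with an adjusted p of 0.301. These 3 had an unadjusted p under 0.05, as did 15.4% of all genes, and DESeq2 passed none of the 10. No term was negative, against 50.3% of all genes, except 1 within batch 1. Hspd1 passed with counts before correction, at 0.19 and an adjusted p of 0.0297 by edgeR with batch as a covariate, and also without normoxic PFF replicate 1 or normoxic monomer replicate 1 or 3, with adjusted p of 0.0454, 0.0394 and 0.0282. A smaller effect of hypoxia on the chaperonins in PFF mice was therefore not shown on the corrected counts. Each group of mice enters 2 of the pairwise comparisons, and all 4 enter the interaction, so the values are given side by side.

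The ratio of Hspd1 to Hspe1 within a mouse, in TPM, had a lowest, median and highest value of 1.58, 1.79 and 2.01 in normoxic monomer mice and 1.63, 1.81 and 2.00 in hypoxic monomer mice. In PFF mice it was 1.49, 1.66 and 1.95 at 21% O2 and 1.47, 1.68 and 1.85 at 11% O2. The ranges of all 4 groups overlapped, and the ratio was not tested.

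Of 27 genes in 4 lists of proteins that work with CCT, 4 (14.8%) passed the adjusted p in hypoxic monomer mice, near the 13.2% of all genes, and all 4 were higher. None of the 6 prefoldin subunits, which hand actin and tubulin to CCT, passed in any comparison, and their median log2 fold change there was -0.01. The 3 cofactors of CCT had a median of 0.01, with none past the test. Among 13 actin and tubulin genes, clients of CCT, 3 rose and none fell, namely Actb by 0.26 ± 0.058, Tubb4a by 0.22 ± 0.068 and Tubb2b by 0.20 ± 0.061 on the log2 scale, with edgeR adjusted p of 0.00183, 0.0282 and 0.0259. Of 5 tubulin folding cofactors, Tbcc rose, by 0.25 ± 0.069 (edgeR adjusted p 0.0112). Over all genes, 7.01% rose and 6.21% fell by the adjusted p.

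In the mitochondrion, 2 of 25 genes of the systems around HSP60 passed, both lower, where 6.21% of all genes fell. Hspa9, the mitochondrial HSP70 that feeds HSP60, had a log2 fold change of -0.06 ± 0.038 in hypoxic monomer mice and did not pass, and in its list of 6 Grpel2, a nucleotide exchange factor, fell by 0.18 ± 0.048 (edgeR adjusted p 0.00823). Of 7 mitochondrial proteases Yme1l1, of the inner membrane, fell by 0.15 ± 0.048 (edgeR adjusted p 0.0328). None of 12 protein import genes passed. Of the 4 chaperonin-like genes Mkks, a subunit of the chaperonin-like complex that assembles the BBSome, fell by 0.68 ± 0.104, with an edgeR adjusted p of 1.43e-05. All 4 had a negative sign, with a median of -0.19, and Mkks alone passed.

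With PFF at 21% O2, where 3.89% of all genes rose, 1 gene rose in each of 5 lists and none fell in them. In the lists of proteins that work with CCT these were 2 of 27 genes (7.41%). Pdcl3, a CCT cofactor, rose by 0.15 ± 0.045 and Actb by 0.17 ± 0.054. Around HSP60 they were 3 of 25 (12%). Hscb, a mitochondrial cochaperone, rose by 0.20 ± 0.063 and Clpx, the ATPase of the CLPXP protease, by 0.14 ± 0.042. Timm44, an import motor subunit, rose by 0.14 ± 0.040. The edgeR adjusted p of these 5 genes were between 0.0277 and 0.0445. Mkks fell by 0.49 ± 0.095, and its interaction term was 0.55 ± 0.144, with edgeR adjusted p of 0.000881 and 0.0274. Timm44 had an interaction term of -0.22 ± 0.059, with an edgeR adjusted p of 0.0385. In PFF mice at 11% against 21% O2, Tubb2b alone of these lists passed, rising by 0.24 ± 0.058 (edgeR adjusted p 0.0305).

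Among the related lists, only that of the HSF1-induced heat shock genes had most of its genes pass as lower alongside the chaperonins. This list was drawn up with earlier results of these samples known and so is no independent evidence of its direction. In hypoxic monomer mice 14 of its 15 genes fell by the adjusted p, against 6.21% of all genes, and 7 with the fold condition, against 2.55%, with a median log2 fold change of -0.24. Dnajb1, an HSP40 cochaperone, fell by 0.87 ± 0.076, Hsph1, an HSP110, by 0.66 ± 0.073 and Hspa1a, the inducible HSP70, by 2.09 ± 0.251, with edgeR adjusted p of 4.6e-11, 2.69e-08 and 1.52e-07. With PFF at 21% O2 11 of 15 fell, against 3.71% of all genes, 7 of them with the fold condition, against 1.41%, and the median was -0.24. There Dnajb1 had a log2 fold change of -0.71 ± 0.069, Hsph1 of -0.48 ± 0.067 and Hspa1a of -1.60 ± 0.221. None of the 15 passed with hypoxia in PFF mice, and 6 passed the interaction, all with a positive term, against 1.24% of all genes. Hspa1a and Hspa1b are near-identical, so the share of reads of each is uncertain.

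**Figure D3:**
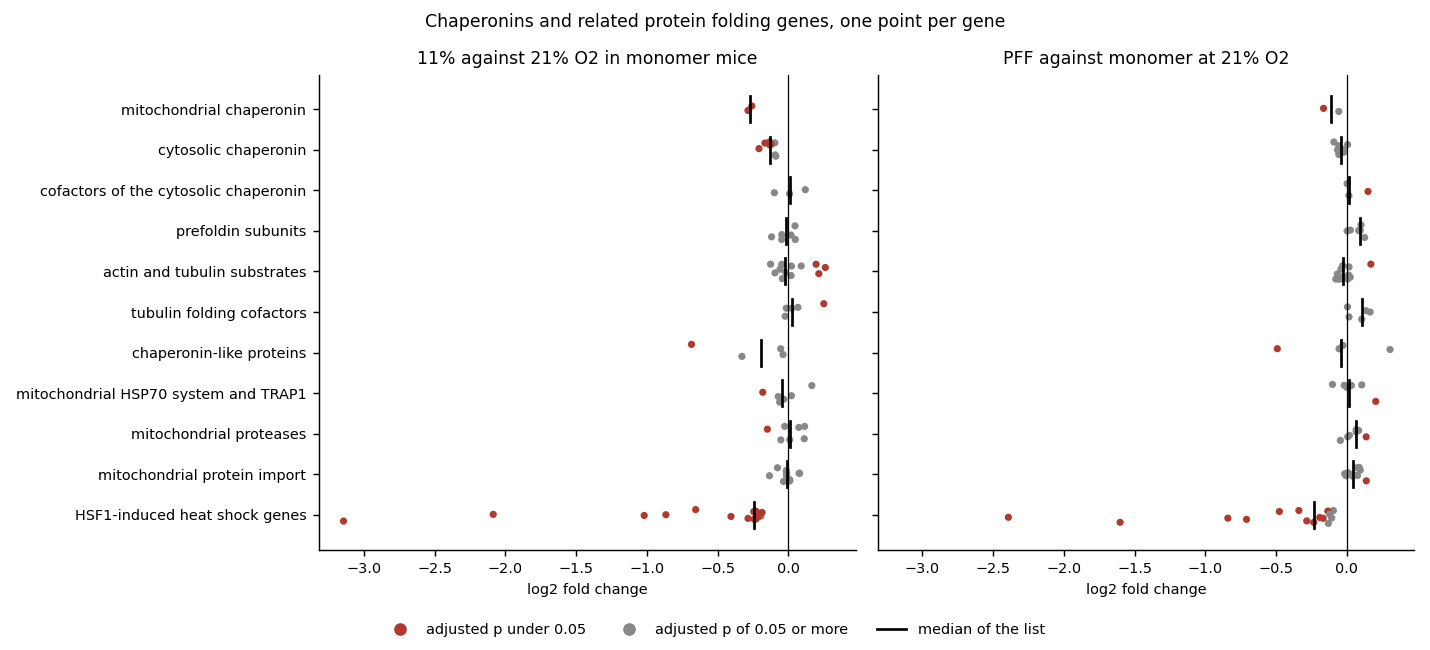
Log2 fold change of each gene, 1 point per gene, in the 2 chaperonin lists and 9 lists of related genes, with hypoxia in monomer mice on the left and PFF at 21% O2 on the right, red where the adjusted p was under 0.05 and a black bar at the median of each list. On the left the medians are -0.27 for the mitochondrial chaperonin, -0.13 for the cytosolic chaperonin, -0.19 for the chaperonin-like proteins and -0.24 for the heat shock genes, and those of the other 7 lists lie between -0.05 and 0.02.

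Levels of Hspd1 and Hspe1 were then compared across mice, on log2 CPM (counts scaled to library size) centred within group and batch, so that group differences play no part. The points share libraries, and the 2 genes share 1 locus. Pearson's r was 0.49 over 42 mice, with a two-sided permutation p of 0.0155 (100000 resamples within group and batch), and Spearman's rho was 0.40, with a permutation p of 0.0354. This was the only relation tested, so no adjustment over several was made. Without the 2 mice farthest from the median of Hspd1, normoxic monomer replicates 4 and 3, r was 0.29 with a permutation p of 0.107, so the relation on the corrected counts rested on those mice. On counts before correction r was 0.55 with a permutation p of 0.00153, and 0.49 with a permutation p of 0.00857 without the 2 mice farthest there, normoxic monomer replicates 12 and 4. Within batches 1, 2 and 3 r was 0.50, 0.56 and 0.46, with permutation p of 0.117, 0.0763 and 0.216 over 15, 14 and 13 mice, and rho was 0.43, 0.67 and 0.42, with permutation p of 0.169, 0.0207 and 0.233.

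**Figure D4:**
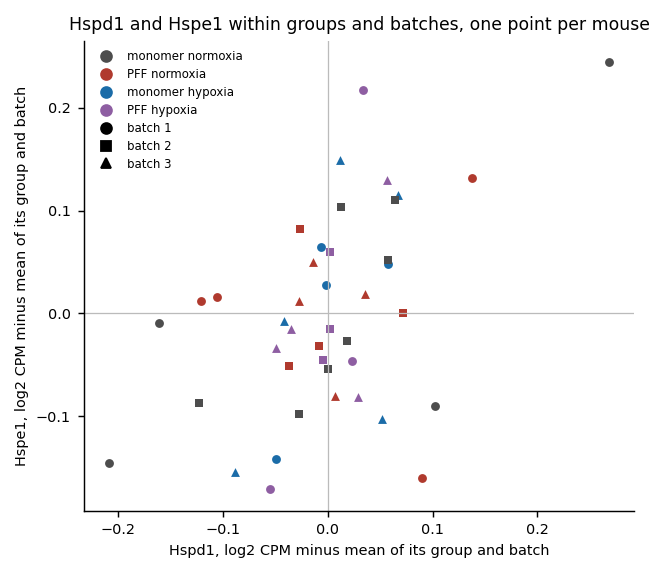
Hspe1 against Hspd1, both as log2 CPM minus the mean of the mouse's group and batch, 1 point per mouse, coloured by group and shaped by batch. The cloud rises to the right with r = 0.49, and the point at the upper right is normoxic monomer replicate 4.

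By the median of their pairs, the CCT genes followed each other more closely than Hspd1 followed Hspe1 (0.49). Some pairs of CCT genes lay below that value, and the difference was not tested. On the same centred values the 28 pairs of CCT genes had r from 0.38 (Cct2 with Cct8) to 0.83 (Cct5 with Cct7), with a median of 0.68, and the 16 pairs of a mitochondrial with a cytosolic gene from 0.24 (Hspe1 with Cct2) to 0.74 (Hspd1 with Cct8), with a median of 0.53. The median r of each chaperonin gene with all 14838 other genes lay between -0.01 and 0.02. Within batches 1, 2 and 3 the median over all 45 pairs was 0.63, 0.59 and 0.80. These r are descriptions over 42 mice that share library depth and composition.

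**Figure D5:**
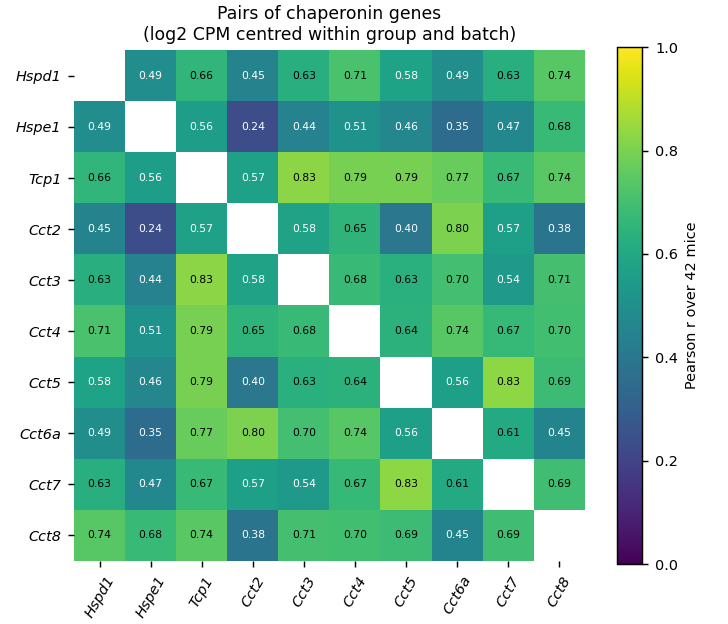
Pearson r between each pair of chaperonin genes over 42 mice, on log2 CPM centred within group and batch, with the value in each cell. Cct5 with Cct7 is the brightest cell, at 0.83, and Hspe1 with Cct2 the darkest, at 0.24.

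The genes most like Hspd1 across the 42 mice were Hsp90aa1 (r = 0.88), Dnaja1 (0.86), Hspa8 (0.80), Ric8b (0.79) and Tgoln1 (0.79), and Hspe1 was 509th in that order. Those most like Hspe1 were Dctn3 (0.77), Tbca (0.77), Tm2d3 (0.76), Timm8b (0.74) and Tma7 (0.73). For Tcp1 they were Vps35 (0.84), Eif4a2 (0.83), Cct3 (0.83), Hnrnpa1 (0.80) and Cct5 (0.79), so that 2 of its 5 nearest genes were CCT subunits. Over the 15 heat shock genes, r with Hspd1 was positive for 13, with a median of 0.43, from -0.34 for Bag3 to 0.88 for Hsp90aa1. With Hspe1 the median was 0.23, and with the CCT genes it lay between 0.09 for Cct4 and 0.34 for Cct8. Single heat shock genes were nonetheless close to CCT genes, with r of 0.87 for Cct8 with Hspa8 and 0.84 for Cct4 with Hsp90aa1. Of the 15, r was positive for 12 with Cct8 and for 10 with Cct4.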

How the data were processed

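The paper's methods state that the authors removed reads of ribosomal DNA, aligned the rest to mm10 with STAR 2.7.5a, removed duplicates with Picard 2.21.9 and counted fragments per GENCODE vM24 gene with featureCounts 2.0.1, primary alignments of multi-mapping reads included and no strand setting named. The deposited counts are whole numbers for 55385 genes in 48 mice, and the authors computed TPM from them. After a principal components analysis the authors left out 6 mice, and for the other 42 they deposited batch-corrected counts (ComBat-seq) and the TPM of these, for 19601 protein-coding genes. Columns of all mice given here were used, 0 left unused.

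From there, the quasi-likelihood test of edgeR 4.0.16 (R 4.3.3) was run on the corrected counts, scaled by TMM and filtered with filterByExpr by group, with 4 groups in 1 fit and no batch term, after the study's design but with edgeR in place of DESeq2. P-values were adjusted over all 14839 genes by Benjamini-Hochberg. Calls follow the study's rule (adjusted p below 0.05, absolute log2 fold change above 0.25), and the adjusted p alone is given beside it. SE is the absolute log2 fold change over the square root of F. Corrected counts treat the batch effect as known, which can make p-values too small. Labels name no litter or cage, so p-values measure the spread between these mice. Centred log2 CPM used a prior count of 2. All 10 members are named, and from each related list up to 3 genes with the smallest p among those past the adjusted p. The members and lists were chosen with earlier results of these data known, so no p is given over a list. Promoters and gene names are from RefSeq (GRCm38.p6), positions from GENCODE vM21 (GRCm38) by gene identifier. The edgeR fit was also run on simulated counts with known changes. These held no batch effect, so they cannot show how batch correction affects the p-values. Alternatives were DESeq2 1.42.0, its size factors, no filter, counts before correction, single batches, a replicate block, limma 3.58.1 on log2(TPM + 1) or log2(TPM + 0.1) and each mouse left out. No 2 mice had identical counts.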

Additional observations from a re-analysis of the deposited data

Results flagged for a closer look

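The 10 genes were each checked in hypoxic monomer and hypoxic PFF mice (9 and 10 mice), giving 20 sets of values. Of these, 1 held a mouse farther from the rest than expected, where chance gives about 1 in 20. The sets are not independent, because the genes vary together across mice. The normoxic groups of 11 and 12 mice were not checked. Cct3 was at 104 TPM in hypoxic monomer replicate 2, against 93.9 TPM in the next mouse and a group mean of 91.7 TPM. That mouse was the highest of its group for 6 of the 10 chaperonin genes. Without it the log2 fold change of Cct3 with hypoxia in monomer mice was -0.12 with an adjusted p of 0.0344 by edgeR, and that of Cct2 was -0.12 with 0.0446, both past the threshold that they missed with it.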

How the results depend on the processing

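Where the fold condition was dropped, the chaperonin genes called went from 0 to 1 with PFF at 21% O2 and from 2 to 7 with hypoxia in monomer mice. Counts by the adjusted p alone, chosen after seeing the data, were 0 and 3 for these comparisons in batch 1 alone, 3 for hypoxia in monomer mice when only those groups were in the fit, and 1 for the interaction, in place of 0, with counts before correction, whether of 42 or 48 mice with batch as a covariate or 42 without. The cause was not tested, but batch 1 and the 2-group fit hold fewer mice. Leaving out 1 mouse gave 4 to 9 and, with the fold condition, 1 to 2 chaperonin genes for hypoxia in monomer mice, and 0 to 1 for the interaction. The r of Hspd1 with Hspe1 lost its call within batches, at 0.50, 0.56 and 0.46, though rho kept it within batch 2. A replicate block gave 6 chaperonin genes for hypoxia in monomer mice, losing Cct5 (edgeR adjusted p 0.0529), and 1 for PFF at 21% O2. With that block the r of Hspd1 with Hspe1 was 0.57, or 0.52 (permutation p 0.0106) without the 2 farthest mice. Deviations of 54 same-numbered pairs of mice from their group means had r between -0.40 and 0.56, median 0.00, with 21 above 0.1. Some of these pairs came from different batches, and the labels do not say which mice the authors matched. Whether replicate numbers mark matched mice was therefore not settled. No fold change of a gene past the threshold changed sign. Over all genes the adjusted p passed 990 and 1131 in 42 and 48 mice before correction with batch as a covariate, in place of 1961, and 364 in batch 1, for hypoxia in monomer mice. The interaction gave 1.26% of genes in 48 mice in place of 2.32%, and 11 genes in batch 1 in place of 344, PFF at 21% O2 gave 9 in batch 1 in place of 1127, and hypoxia in PFF mice gave 6, 7 and 2 within batches in place of 121. TPM before correction, taken over 55385 genes, were 91.2% to 94.8% of the 40 corrected group means in 42 mice, and over 42 and 48 mice together 63 of 80 such means lay more than 1 SD from the corrected one.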

Other observations

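The 6 mice that the authors left out have values only before correction. Hypoxic PFF replicate 2, with 3134594 counts, was below every kept mouse of its group for 9 of the 10 chaperonin genes, with Hspd1 at 225 TPM. Hypoxic monomer replicates 9 and 12 were below their kept group for 6 genes each and replicate 8 for 2, with Hspd1 at 278, 267 and 257 TPM. Hypoxic PFF replicate 5 and normoxic monomer replicate 10 were within their kept group for 9 genes each and above it for 1. With all 48 mice the log2 fold change of Hspd1 for hypoxia in monomer mice, batch as a covariate, was -0.27, with an adjusted p of 3.39e-06 by edgeR.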
